A study of Rattus norvegicus with 4 samples.

Results

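The 8 genes described here carry the phospholipase A2 name. They are the secreted enzymes Pla2g2a, Pla2g5 and Pla2g7, the intracellular enzymes Pla2g4a, Pla2g6, Pla2g15 and Pla2g16, and the phospholipase A2-activating protein Plaa. Members were the probe sets, groups of short DNA probes for 1 transcript, whose platform annotation gives a single gene symbol that is on this list. That gave 10 of the 31099 probe sets on the array, for 7 of the 8 genes and of 14217 genes with a probe set of 1 symbol. Pla2g16 was found under its current symbol Plaat3, for which RefSeq lists Pla2g16 as a synonym, and Pla2g7 was not analysed here because no probe set matched that symbol. Plaa is in the list by name and is not itself an established phospholipase.

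The cells were Sprague-Dawley rat aortic smooth muscle cells in culture, the contractile cells of the artery wall. Both groups had 5 days in medium with 10% serum and then 3 days without serum. The IL-1b group, 2 samples, then received interleukin-1 beta, an inflammatory cytokine, at 2.5 ng/mL for 24 hours, and the vehicle group, 2 samples, received 0.1% bovine serum albumin for the same time. Each sample was hybridised to 1 array, and the labels do not give the culture each came from. The p-values therefore rest on the spread among these 4 samples, and that spread may be technical. The fit also drew the variance of each probe set towards that of probe sets of like intensity. A p-value therefore does not measure only the spread of its own probe set.

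Phospholipases A2 cut the middle fatty acid from membrane phospholipids. The products are a free fatty acid, often arachidonic acid, and a lysophospholipid, and both are raw material for lipid mediators. Arachidonic acid feeds cyclooxygenases and lipoxygenases, which begin the synthesis of prostaglandins and leukotrienes. The secreted enzymes encoded by Pla2g2a and Pla2g5 are small, need calcium and act outside the cell or at its surface. The cytosolic enzyme encoded by Pla2g4a prefers arachidonate and moves to internal membranes when calcium rises. In arteries the group IIA enzyme, encoded by Pla2g2a, is known as a product of smooth muscle cells exposed to inflammatory cytokines and as a component of inflamed vessel wall.

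The smooth muscle marker Acta2 read 12767 ± 379 with vehicle and 4139 ± 1209 with IL-1b (SD, n = 2), and 5 of 6 smooth muscle markers fell. Of 8 macrophage markers 2 were bright enough to be tested, and the summed intensity of all 8 was 668 to 716 on the vehicle arrays and 1662 to 2025 on the IL-1b arrays. Lyz2 made up most of the rise in this sum, which adds probe sets that are not comparable as levels. Cd14 was above background on all 4 arrays, at 616 and 578 with vehicle and 796 and 950 with IL-1b, and Csf1r on 3, at 55.5 and 49.8 against 16.7 and 28.8. Lyz2 read 3.83 and 10.2 against 685 and 969, above background with IL-1b only. Cd68, Adgre1 and Ptprc were each above background on 1 IL-1b array and no vehicle array, and Itgam and Cd163 on none. Of 5 endothelial markers 4 had a probe set, and 1, Tek, was bright enough to be tested (log2 fold change -0.22 ± 0.63, SE). Kdr read 5.16 and 5.64 with vehicle and 54.0 and 36.1 with IL-1b, above background on IL-1b replicate 2 only. Pecam1 and Vwf were below background on all 4 arrays. The part of other cells in the results was not tested. IL-1b replicate 1 stood apart, with hybridisation controls at 3.53 times their vehicle mean against 0.957 times on IL-1b replicate 2, and with the highest background of the 4 arrays (18.8 to 29.4 on the others).

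The 250 bases before the annotated start are shown for the 4 genes that changed, and for Plaa, which did not pass the test, as a contrast. They are from RefSeq's rat assembly GRCr8, 5′ to 3′ on the strand of the gene, and all 7 genes with a probe set had a match there. Capitals mark letters of the motifs described after them. The windows are chr5:156359475-156359724 on the plus strand for Pla2g2a, chr5:156345923-156346172 on the minus strand for Pla2g5, chr13:64572353-64572602 on the minus strand for Pla2g4a, chr1:214211629-214211878 on the plus strand for Plaat3, and chr5:114576024-114576273 on the minus strand for Plaa.
Pla2g2a: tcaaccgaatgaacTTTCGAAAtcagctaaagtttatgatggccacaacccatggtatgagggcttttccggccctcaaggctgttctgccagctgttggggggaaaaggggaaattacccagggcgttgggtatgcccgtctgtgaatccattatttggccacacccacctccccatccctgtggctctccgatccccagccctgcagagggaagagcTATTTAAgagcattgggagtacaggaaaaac
Pla2g5: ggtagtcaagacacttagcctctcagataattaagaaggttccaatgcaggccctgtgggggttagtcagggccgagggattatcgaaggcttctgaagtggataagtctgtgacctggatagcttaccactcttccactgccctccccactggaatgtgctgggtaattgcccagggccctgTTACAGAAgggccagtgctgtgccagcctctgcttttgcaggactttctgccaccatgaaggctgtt
Pla2g4a: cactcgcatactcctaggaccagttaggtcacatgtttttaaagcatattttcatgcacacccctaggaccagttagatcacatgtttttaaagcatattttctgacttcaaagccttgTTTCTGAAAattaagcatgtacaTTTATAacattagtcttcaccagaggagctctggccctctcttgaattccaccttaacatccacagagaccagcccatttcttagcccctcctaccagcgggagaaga
Plaat3: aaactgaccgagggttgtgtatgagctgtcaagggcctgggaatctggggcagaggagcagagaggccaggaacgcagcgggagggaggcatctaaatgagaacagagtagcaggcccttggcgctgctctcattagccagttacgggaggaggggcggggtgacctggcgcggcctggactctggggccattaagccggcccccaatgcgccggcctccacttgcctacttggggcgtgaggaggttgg
Plaa: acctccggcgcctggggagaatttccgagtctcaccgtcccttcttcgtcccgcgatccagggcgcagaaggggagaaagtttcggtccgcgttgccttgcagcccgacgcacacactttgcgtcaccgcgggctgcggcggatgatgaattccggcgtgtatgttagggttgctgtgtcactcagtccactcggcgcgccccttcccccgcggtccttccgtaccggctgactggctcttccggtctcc

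Motifs were searched on both strands in these windows and in all 33469 promoter windows of the same length. NF-kB is a transcription factor that IL-1 signalling activates. Its consensus GGGRNNYYCC was in 6.33% of all windows and in none of the windows of the 7 genes. In these letters R is A or G, Y is C or T and N is any base. Looser variants of the NF-kB string were not searched, so its absence does not show that a site is lacking. The C/EBP string TTNNGNAA was in 37.2% of all windows. It was present before Pla2g2a at 236 to 229 bases upstream of the start, before Pla2g5 at 67 to 60, and before Pla2g4a in 2 overlapping copies at 131 to 123. It was also present before 2 genes that did not pass the test, Pla2g6, in 1 of its 2 windows at 103 to 96 and 24 to 17, and Pla2g15 at 16 to 9, and so before 5 of the 7 genes. The AP-1 string TGANTCA, in 6.34% of windows, was in none of the 7 genes' windows. TATAAA, in 12.9% of windows, was on the reverse strand before Pla2g4a at 108 to 103, and TATTTAA, a string written after the Pla2g2a letters were read, was in 4.16% of windows and before Pla2g2a at 31 to 25. These matches describe letters and not factor binding.

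The windows also differed in CpG dinucleotides, a feature of the promoters of widely expressed genes. The windows of Pla2g4a, Pla2g5 and Pla2g2a, whose transcripts rose, held 2, 2 and 6 CpG. That of Plaat3, which fell, held 12. The windows of Pla2g6, Pla2g15 and Plaa, which did not pass the test, held 19 in each of 2 annotated starts, 24 and 28. The median over all windows was 5, so the first 3 genes lay near it and the last 3 above it. Their G and C content ran from 42.4% to 53.2% in the first 3 genes and from 60.4% to 64.4% in the last 3, against a median of 51.2%. No test was made of this pattern over 7 genes.

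After 24 hours of IL-1b, 3 phospholipase genes rose and 1 fell. With vehicle values set to background, the ratio of IL-1b to vehicle was 249-fold for Pla2g2a and 4.02-fold for Pla2g5. These ratios leave out error and background in the IL-1b values, so they are not minima. The fitted fold of Pla2g5, 3.66, was below its ratio, and that of Pla2g2a, 480, was above it. The fitted 95% intervals began at 7.62 for Pla2g2a and 0.73 for Pla2g5 on the log2 scale. Pla2g4a rose 2.35-fold, and Plaat3 fell by 1.81 on the log2 scale. Of the 10 member probe sets, all bright enough to be tested, 3 were higher, 1 was lower and 6 did not pass an adjusted p of 0.05 in limma. Pla2g2a and Pla2g5 were bright enough only through their IL-1b arrays, and with no filter on brightness 2 member probe sets were higher. Over all 18625 probe sets tested, 6.32% were higher and 7.11% lower, and the median log2 fold change was 0.05 over the members and 0.02 over all. The groups did not overlap in 6 of the 10 member probe sets, against 58.3% of all probe sets tested, so that share was near the background. Intensities of different probe sets are not comparable as levels. Array data of whole cultures cannot tell more transcript per cell from more cells that make it.

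**Figure D1:**
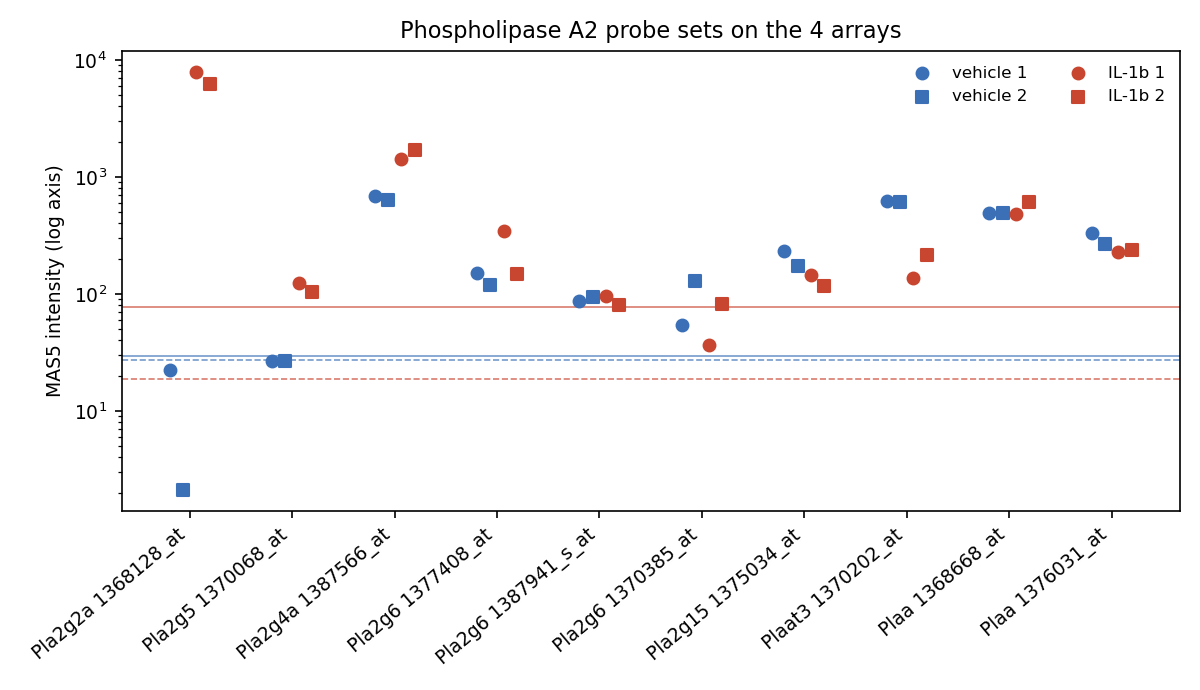
Intensity (log axis) of each of the 10 probe sets on the 2 vehicle arrays (blue) and the 2 IL-1b arrays (red), circles for replicate 1 and squares for replicate 2. Horizontal lines are each array's background (solid for replicate 1, dashed for replicate 2). Pla2g2a went from 22.5 and 2.11 to 7934 and 6183, and Plaat3 is the probe set with both IL-1b points furthest below its vehicle points.

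Pla2g2a encodes the group IIA secreted enzyme, which hydrolyses phospholipids of bacterial membranes and of lipoproteins. Its probe set read 22.5 and 2.11 with vehicle and 7934 and 6183 with IL-1b. Both vehicle values lay below the background of their arrays, 29.4 and 26.9, so the vehicle cells have only a bound. The IL-1b mean was 7059 ± 1238 (SD, n = 2). The fitted log2 fold change was 8.91 ± 0.54 (SE, 95% interval 7.62 to 10.2, adjusted p = 0.00015), the 4th largest increase of the 18625 probe sets tested. Leaving out vehicle replicate 1 gave 9.85 and leaving out replicate 2 gave 7.97, and both vehicle values lay within background. This probe set passed the filter on dim values through its IL-1b arrays, with a vehicle mean log2 value of 3.87 against a minimum of 5.37.

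The genes whose values followed Pla2g2a most closely over the 4 arrays were Cxcl2, Ccl20 and Wfdc18, at Euclidean distances of 0.589, 1.00 and 1.77 between mean-centred log2 values. Cxcl2 and Ccl20 are chemokines, and Wfdc18 is a small secreted protein of the whey acidic protein family. All 3 were below background on both vehicle arrays, like Pla2g2a, so this likeness rests on the IL-1b values and on noise in the vehicle values.

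Pla2g5 encodes the group V secreted enzyme, which binds phosphatidylcholine-rich membranes better than the group IIA enzyme does. It read 26.9 and 26.9 with vehicle, just below background on both arrays, and 124 and 103 with IL-1b, above background on both. Both IL-1b values were above both vehicle values. The log2 fold change was 1.87 ± 0.48 (SE, 95% interval 0.73 to 3.02, adjusted p = 0.048). The ratio of the IL-1b values to the vehicle background was 4.02-fold, which leaves out error in the IL-1b values. The reading of 124 lay over a background of 76.7 on its array. Pla2g5 also passed the filter through its IL-1b arrays (vehicle mean log2 value 5.02). The call was lost with no filter on dim probe sets (adjusted p = 0.093), with quantile normalization (0.056) and with median centring (0.063). It was also lost without vehicle replicate 1 or 2 and at an adjusted p under 0.01. The stricter filter left Pla2g5 out, so it had 12 alternatives.

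Pla2g5 and Pla2g2a are neighbours on chromosome 5 on opposite strands, within a run of secreted phospholipase genes in the order Pla2g2c, Pla2g2f, Pla2g2d, Pla2g5, Pla2g2a and Pla2g2e in the RefSeq annotation. Of the other genes of that run, 3 had a probe set, and each was too dim to be tested. Pla2g2c read 7.11 and 28.4 with vehicle and 81.0 and 57.7 with IL-1b, above background on 1 vehicle array and both IL-1b arrays. Pla2g2f read 9.64 and 17.8 against 62.3 and 26.0, above background only on IL-1b replicate 2. Pla2g2d read 7.18 and 1.71 against 8.32 and 3.25, below background on all 4 arrays.

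Pla2g4a encodes cytosolic phospholipase A2 alpha, the enzyme that releases arachidonic acid inside the cell after phosphorylation by MAP kinases. It was well above background with vehicle, at 682 and 635, and read 1409 and 1712 with IL-1b. The lower IL-1b value was more than the higher vehicle value, and the means were 659 ± 32.9 and 1560 ± 215 (SD, n = 2). The log2 fold change was 1.23 ± 0.16 (SE, 95% interval 0.86 to 1.60), or 2.35-fold (adjusted p = 0.0030). It was 1.09 to 1.37 with any 1 array left out. The call was lost with median centring (1.03, adjusted p = 0.12) and without the intensity trend of the variance (adjusted p = 0.056).

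The genes nearest to Pla2g4a over the 4 arrays were Tnfaip8l3, a carrier of phosphoinositides, Cachd1 and the transcription factor Ets2, at distances of 0.0760, 0.0775 and 0.0978. Their log2 fold changes were 1.24, 1.23 and 1.29. With 4 arrays, closeness mainly reflects a like difference between groups.

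Pla2g6 encodes the calcium-independent enzyme that takes part in membrane remodelling. Its 3 probe sets gave no common direction. The brightest, 1377408_at, read 149.9 and 119.6 with vehicle and 342 and 149 with IL-1b, and its groups overlapped. Its log2 fold change was 0.73 ± 0.40 (SE, 95% interval -0.22 to 1.68, adjusted p = 0.29). Leaving out IL-1b replicate 1 gave 0.15 and leaving out replicate 2 gave 1.32 (adjusted p = 0.78 and 3.2e-05), so the reading of 342 decides its size. The probe set 1387941_s_at, of a design whose probes can match several transcripts, read 87.3 and 93.6 against 96.8 and 80.1, at -0.04 ± 0.36. The third, 1370385_at, read 54.2 and 129.9 against 36.5 and 81.8, at -0.57 ± 0.60, and was below background on IL-1b replicate 1. The intervals of the last 2, -0.88 to 0.81 and -1.99 to 0.85, include changes of 1.5-fold both ways, so such changes were not detectable with these arrays.

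Pla2g15 encodes the lysosomal phospholipase A2, which also transfers acyl groups to ceramide. It read 233 and 172 with vehicle and 146 and 118 with IL-1b. Both IL-1b values were below both vehicle values, at a log2 fold change of -0.59 ± 0.28 (SE, 95% interval -1.26 to 0.07, adjusted p = 0.23). Without IL-1b replicate 1 it was -0.74 and passed (adjusted p = 0.031).

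Plaat3, also called Pla2g16, encodes a membrane-bound acyltransferase with phospholipase activity that is abundant in fat tissue. It read 627 and 609 with vehicle and 138 and 214 with IL-1b. Both IL-1b values were far below the vehicle values and above background on their arrays. The means were 618 ± 12.8 and 176 ± 54.0 (SD, n = 2), a 3.51-fold reduction at a log2 fold change of -1.81 ± 0.24 (SE, 95% interval -2.38 to -1.24, adjusted p = 0.0035). It passed in each of the 13 alternatives, at -2.12 to -1.505 and an adjusted p of at most 0.049, and was the 492nd largest decrease of the 18625 probe sets.

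Plaa encodes a protein that binds ubiquitin and the segregase p97 and takes part in protein turnover. Its first probe set, 1368668_at, read 489 and 491 with vehicle and 483 and 609 with IL-1b, at 0.15 ± 0.18 (log2, SE, adjusted p = 0.64). Its second, 1376031_at, read 334 and 267 against 227 and 238, at -0.35 ± 0.21 (adjusted p = 0.33). The 95% intervals of this fit, -0.27 to 0.56 and -0.85 to 0.14, place any change of Plaa at either probe set within 2-fold. With median centring 1376031_at was at -0.56 ± 0.39 (log2, SE), which does not hold it within 2-fold.

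**Figure D2:**
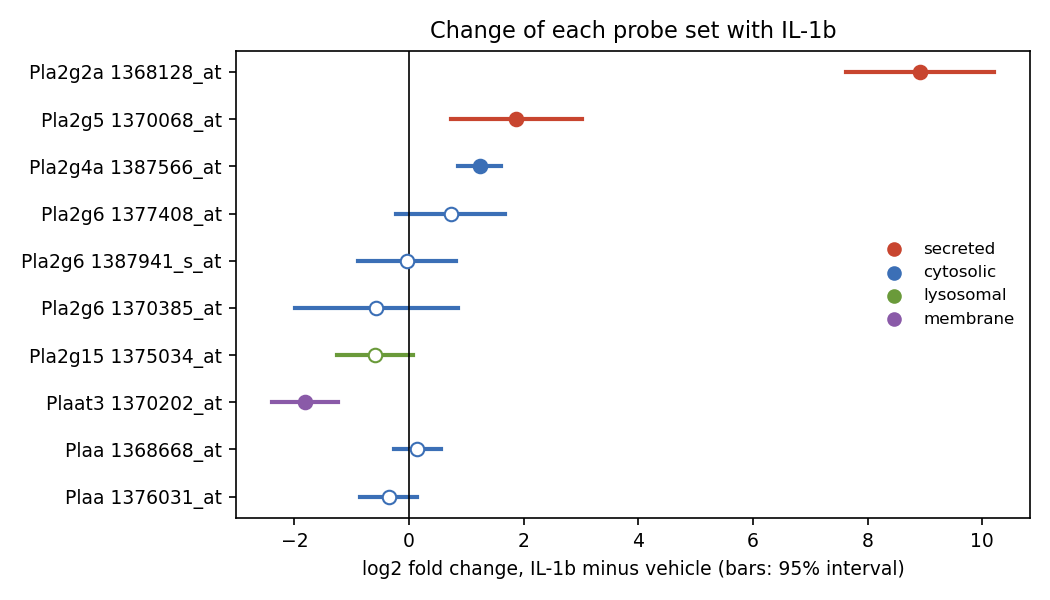
Log2 fold change of each probe set, IL-1b minus vehicle, with its 95% interval from limma, coloured by where the protein acts. Filled points passed an adjusted p of 0.05. Pla2g2a at 8.91 stands far to the right, Pla2g5 and Pla2g4a at 1.87 and 1.23 are the other filled points above 0, and Plaat3 at -1.81 is the filled point below it.

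The secreted and cytosolic enzymes were compared through the log2 ratio of their intensities on each array, centred on its vehicle mean, which shows unequal change and not which enzyme is more abundant. Neither Pla2g2a nor Pla2g5 was above background on a vehicle array. Their vehicle values were therefore set to background, a choice made after the values were seen. That choice can only lower a change, but error and background in the IL-1b values are left out, so the changes are not minima. The ratio of Pla2g2a to Pla2g4a was 7.04 and 6.402 on the IL-1b arrays, a change of 6.72. For Pla2g2a over the brightest probe set of Pla2g6 it was 6.79 and 7.63, a change of 7.21. For Pla2g5 over Pla2g4a it was 1.04 and 0.50, a change of 0.77, and for Pla2g5 over Pla2g6 it was 0.79 and 1.72, a change of 1.26. The fitted 95% intervals of Pla2g5 (0.73 to 3.02) and Pla2g4a (0.86 to 1.60) overlapped, as did those of Pla2g5 and this Pla2g6 probe set (-0.22 to 1.68). No p is given for these 4 ratios, since a two-sided exact permutation test of 2 against 2 samples cannot go below 0.333.

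**Figure D3:**
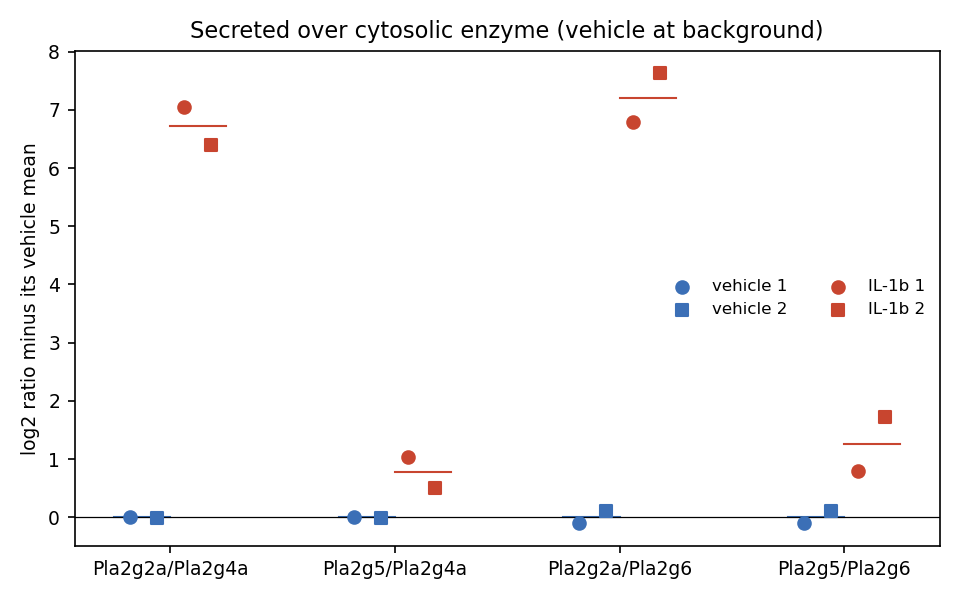
Log2 ratio of a secreted over a cytosolic enzyme on each array, with the secreted enzyme at background on the vehicle arrays and the mean of the 2 vehicle arrays set to 0; horizontal strokes are group means. The ratios with Pla2g2a are higher with IL-1b by 6.72 and 7.21, and those with Pla2g5 by 0.77 and 1.26, with error and background in the IL-1b values left out.

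Genes that act before and after these enzymes were taken from lists by function. Over the 10000 genes tested, each by its brightest probe set, 7.19% were higher and 8.13% lower. Of the other phospholipase A2, patatin-like and platelet-activating factor hydrolase genes, 19 of 26 had a probe set and 9 were tested, and 0 passed in limma, adjusted or at an unadjusted p under 0.05. The largest changes either way among these 9 were Pla2g12a at -1.04 ± 0.52 and Pnpla7 at 1.23 ± 0.54 (log2, SE). Pla2g12a read 199 and 210 with vehicle and 52.0 and 175 with IL-1b, and was below background on IL-1b replicate 1. Nearer to no change were Pnpla8, a mitochondrial calcium-independent phospholipase, at 0.10 ± 0.26 and the receptor Pla2r1 at 0.16 ± 0.38. The other 10 genes with a probe set were too dim to be tested.

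Of 7 tested genes of arachidonate oxygenation, 2 rose, 1 fell and 4 did not pass (median log2 fold change 0.57, against -0.01 over all genes). Ptgs2, cyclooxygenase 2, read 832 and 633 with vehicle and 6833 and 6921 with IL-1b (adjusted p = 9.9e-05). Ptges, which makes prostaglandin E from the cyclooxygenase product, read 53.9 and 27.4 against 824 and 1018 (adjusted p = 0.00030). Lta4h, which makes leukotriene B from leukotriene A, fell by 0.62 (adjusted p = 0.029). Ptgs1, cyclooxygenase 1, and Alox5ap, the partner of 5-lipoxygenase, were too dim to be tested, and Alox5ap was below background on all 4 arrays.

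Fatty acids that phospholipases release are returned to phospholipids by acyl-CoA synthetases and acyltransferases. Of 16 such genes tested, 3 rose, 1 fell and 12 did not pass (median 0.38). Acsl4, a synthetase that prefers arachidonic acid, rose by 1.32 ± 0.27, Acsl1 by 1.31 ± 0.23 and Mboat7, which puts arachidonate into phosphatidylinositol, by 1.18 ± 0.16 (log2, SE, adjusted p = 0.021, 0.012 and 0.0038). Agpat5 fell by 0.70 (adjusted p = 0.036). Lpcat3, an acyltransferase that also takes arachidonate and was named after its value was seen, did not pass (0.35 ± 0.14, adjusted p = 0.17).

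Of 13 tested kinases and binding proteins of the cytosolic enzyme, 3 rose, 3 fell and 7 did not pass (median -0.15). Cerk, which makes ceramide 1-phosphate, a lipid that binds this enzyme, rose by 1.37 ± 0.18, Mapkapk2, a kinase downstream of p38, by 1.203 ± 0.16, and S100a10, a partner of annexin A2 that binds the enzyme, by 1.14 ± 0.15 (log2, SE, adjusted p = 0.0035, 0.0032 and 0.0036). Camk2g, a calcium-dependent kinase, fell by 1.40 (adjusted p = 0.0025). The other two that fell, Camk2d by 1.13 and Mapk14 (p38 alpha) by 0.69, were named after their values were seen (adjusted p = 0.0034 and 0.022).

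Lysophospholipids, the second product, act through receptors of their own. Of 12 tested genes of lysophospholipid and platelet-activating factor signalling, 3 rose, 2 fell and 7 did not pass at their brightest probe set (median 0.30). Counting any tested probe set, 6 of these genes had 1 that passed. Enpp2, autotaxin, which makes lysophosphatidic acid, rose by 3.06 ± 0.30 and Lcat, an enzyme of lipoprotein cholesterol with phospholipase A2 activity, by 1.63 ± 0.39 (log2, SE, adjusted p = 0.00087 and 0.038). The lysophosphatidic acid receptors Lpar1 and Lpar6 fell by 2.82 and 1.18 (adjusted p = 0.0022 and 0.025). S1pr3, named after its value was seen, rose by 0.95 (adjusted p = 0.0067). Of 15 tested p97 and ubiquitin partners of Plaa, 0 passed in limma at their brightest probe set, 5 had an unadjusted p under 0.05, and 4 had another probe set that passed.

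**Figure D4:**
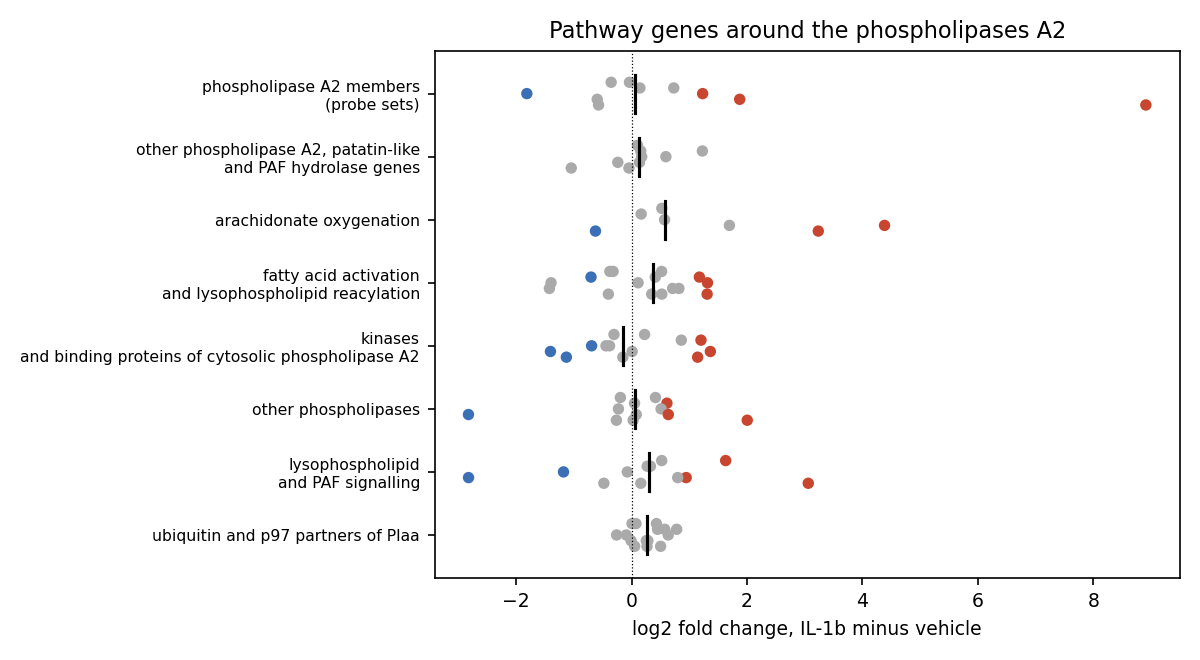
Log2 fold change, IL-1b minus vehicle, of each member probe set and of each tested gene of the lists around them; red points rose, blue points fell and grey points did not pass an adjusted p of 0.05, and black strokes are medians. The member probe sets span -1.81 to 8.91 around a median of 0.05.

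The calls for Pla2g2a (adjusted p at most 0.017) and Plaat3 held in every alternative setting run, while those of Pla2g4a and Pla2g5 did not. The log2 fold change of Pla2g2a ran from 7.92 to 9.99 over 13 alternatives, that of Plaat3 from -2.12 to -1.505, that of Pla2g4a from 1.03 to 1.37 and that of Pla2g5, over 12, from 1.54 to 2.07. These 4 kept their direction throughout.

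**Figure D5:**
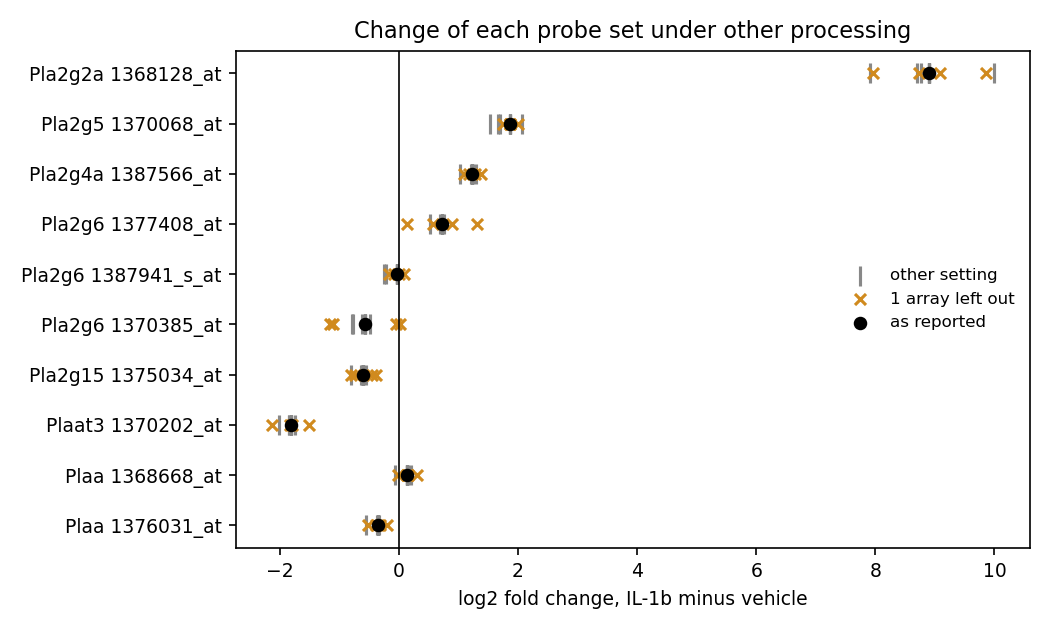
Log2 fold change of each probe set as reported (black), with 1 array left out (crosses) and under the other settings (grey strokes). The points of Pla2g2a, Pla2g5, Pla2g4a and Plaat3 stay on 1 side of 0, and those of Plaa 1368668_at and of the Pla2g6 probe sets 1387941_s_at and 1370385_at lie on both sides.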

How the data were processed

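The deposited values are MAS5 probe set intensities on a linear scale, per the submitters' processing notes, with version and settings not given in the sources used here. After trimming 2% of probe sets at either end, every array had a mean of 250.1, so no further normalization was applied. The log2 of intensity plus 5.49, the 10th percentile of all values, was computed here from the deposited intensity values, and fold changes on that scale understate changes of dim genes. Controls (57 probe sets) were dropped, and probe sets with a mean log2 value at or above the 40th percentile (5.37) were kept. The fit used limma 3.58.1 and R 4.3.3 (lmFit, eBayes with an intensity trend), with Benjamini-Hochberg adjustment over all 18625 probe sets, after testing the procedure on simulated data.

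Background on an array is the 95th percentile over 27 Bacillus control probe sets. For a gene below it on both arrays of a group, a fold is the other group's geometric mean over the higher of background and the own value on each array. Such a ratio leaves out error and background in the brighter group, so it is not a minimum. A gene outside the members is represented by its brightest tested probe set. Named genes are all members, up to 4 genes past the threshold with the largest change in each list, and the 3 nearest to Pla2g2a and to Pla2g4a. Pla2g12a, Pnpla7, Pnpla8, Pla2r1, Ptgs1, Alox5ap, the chromosome 5 neighbours and the cell type markers fall outside this rule and were named after their values were seen. The members and lists were chosen with earlier results of these data known. Alternatives were other offsets, quantile normalization, median centring, no filter or a stricter one, no trend, robust empirical Bayes, a block for replicate number, each array left out, and an adjusted p under 0.01. The number of arrays limits the precision.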

Additional observations from a re-analysis of the deposited data

How the results depend on the processing

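Probe sets past the threshold, 2503 as reported, numbered 1634 with median centring, 963 without the intensity trend and 1222 at an adjusted p under 0.01, and 1426 to 8794 with 1 array left out. In those fits the group left with 1 sample is taken to be as variable as the other. Member probe sets that were higher, 3 as reported, numbered 1 with median centring. They numbered 2 with quantile normalization, with no filter, with the stricter filter, without the intensity trend and at an adjusted p under 0.01. Those lower, 1 as reported, numbered 1 in each of these settings. Median centring moved the median log2 fold change of all probe sets from 0.02 to -0.19. The replicate numbers are shared by the groups, but no label says that they pair samples, and deviations of same-numbered samples correlated at 0.09. With the replicate number as a block 3276 probe sets passed, and 3 member probe sets were higher and 1 lower. Among the member probe sets, changes of sign occurred only where no call was made. Plaa 1368668_at, at 0.15 as reported, was -0.060 with median centring and -0.022 to 0.31 with 1 array left out. Pla2g6 1387941_s_at ran from -0.16 to 0.093 and Pla2g6 1370385_at from -1.16 to 0.019 with 1 array left out. The cause was not tested.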

Other observations

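Phospholipases of other kinds, which cut other bonds of a phospholipid, were measured on the same arrays. Of 12 tested, 3 rose, 1 fell and 8 did not pass at their brightest probe set, with a median log2 fold change of 0.07. Counting any tested probe set, 5 of these genes had 1 that passed. Plcl1, a phospholipase C-like protein that lacks catalytic activity, read 1755 ± 86.3 with vehicle and 245 ± 42.6 with IL-1b (SD, n = 2). It fell by 2.82 on the log2 scale (limma adjusted p = 0.00015). Pla1a, a secreted phospholipase that removes the first fatty acid of phosphatidylserine, rose by 2.004 ± 0.45 (log2, SE, adjusted p = 0.028), from 43.2 and 24.8 to 154 and 144, with 1 of the 2 vehicle arrays above background. Like Pla2g2a and Pla2g5, Pla1a passed the filter on dim values through its IL-1b arrays (vehicle mean log2 value 5.26 against a minimum of 5.37). Plbd2, a lysosomal phospholipase B-like protein, rose by 0.64 and Plcd1, a phospholipase C, by 0.61 (adjusted p = 0.026 and 0.048).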
